A study of Homo sapiens with 18 samples.

Results

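The 40 mitosis and spindle genes described here encode the cyclins, kinases, checkpoint proteins, kinetochore proteins, kinesins and spindle factors of dividing human cells. They were taken as a list by name and role, under a rule that uses no measured value, but with earlier results of these data known. All 40 were found among the 19753 named genes of the expression table and among the 13074 genes that passed a filter of a mean of 1 TPM (transcripts per 1000000). Poly(A) RNA was sequenced from NCI-H211, a human small cell lung cancer cell line that expresses the octamer-binding tuft-cell factor POU2F3, and every group carried Cas9. The lines stably expressed a CRISPR-resistant cDNA of POU2F3 with L191A (alanine in place of a leucine), a CRISPR-resistant wild-type POU2F3 cDNA (WT) or an empty control (Empty Vector), and each was 1 stable population. Each was infected in triplicate with a lentivirus for sgPOU2F3, a guide against endogenous POU2F3, or for the control guide sgRosa, with nearly all cells positive for mCherry, and was collected on day 5. There were 3 libraries in each of L191A sgPOU2F3, L191A sgRosa, WT sgPOU2F3, WT sgRosa, Empty Vector sgPOU2F3 and Empty Vector sgRosa cells, 18 libraries in all. Replicates are separate infections of 1 line, and the p-values therefore reflect the spread between infections, not between lines made anew.

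Cells build a bipolar spindle from microtubules after CDK1 and its B-type cyclins start mitosis, and the spindle checkpoint holds anaphase until every kinetochore is attached. The anaphase-promoting complex then marks cyclin B for destruction, the chromosomes part, and kinesins and their partners organise the midzone at which the cell divides. Most of these genes are transcribed late in the cell cycle, and their promoters are known for the cell cycle genes homology region (CHR), a short element bound by the MuvB complexes with MYBL2 and FOXM1 or with the retinoblastoma relatives, and for CCAAT boxes bound by NF-Y. In a culture, their RNA level rises with the share of cells in G2 and M phase, and in bulk RNA fewer such cells and less RNA per cell cannot be told apart.

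Promoters are shown because the list was chosen by role, and the letters before the start sites are a feature that the choice did not use. RefSeq promoter windows (GRCh38.p14, 250 bases before to 50 after a start) were matched by symbol for 34 of the 40 genes, in 40 windows. AURKA, TPX2, BIRC5, BUB3, TTK and UBE2C had no entry in the table. The CHR letters TTTGAA or TTCGAA, on either strand, stood in 31 of the 40 windows (77.5%). They stood in 5742 of all 35116 windows (16.4%) and in 12% of the windows of genes tested here. A CCAAT box, on either strand, stood in 30 of the 40 windows (75%), against 34.6% of all windows and 34.8% of those of genes tested. Both motifs stood in 25 (62.5%), against 6.38% and 4.85%. The octamer core ATGCAAA, the kind of motif that POU2F3 and its relatives bind, was in 0 of the 40 windows on either strand. It was in 4.46% of all windows and 3.25% of those of genes tested. These are matches of letters, not measured binding. Of 42 CHR matches, 21 began within the last 70 bases before the start. The 150 bases before the start are printed for 1 gene of each of the first 4 roles, those holding both motifs and with the smallest p for sgPOU2F3 in Empty Vector cells. CHR and CCAAT matches are in capitals.
CDC25C: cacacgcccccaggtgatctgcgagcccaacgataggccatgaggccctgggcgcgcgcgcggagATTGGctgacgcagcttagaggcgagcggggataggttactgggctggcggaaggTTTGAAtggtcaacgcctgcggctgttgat
CDCA8: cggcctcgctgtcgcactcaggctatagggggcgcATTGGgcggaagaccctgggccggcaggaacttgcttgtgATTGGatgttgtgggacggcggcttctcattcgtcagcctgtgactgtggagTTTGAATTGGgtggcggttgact
CDC20: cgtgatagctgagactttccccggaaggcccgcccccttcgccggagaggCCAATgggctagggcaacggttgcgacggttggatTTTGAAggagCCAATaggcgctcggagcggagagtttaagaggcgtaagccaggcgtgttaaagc
CENPF: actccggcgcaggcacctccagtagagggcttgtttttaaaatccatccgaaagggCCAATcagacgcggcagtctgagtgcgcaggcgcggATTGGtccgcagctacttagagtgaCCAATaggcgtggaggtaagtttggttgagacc
The CDC25C stretch lies at chr5:138331805-138331954 on the minus strand, and its CHR begins 30 bases before the start. CDCA8 (chr1:37692366-37692515, plus strand) has its CHR 23 bases before the start, where it shares 1 letter with a CCAAT box on the other strand. In CDC20 (chr1:43358831-43358980, plus strand) the CHR lies 65 bases before the start, between a pair of CCAAT boxes at 100 and 55 bases. CENPF (chr1:214603045-214603194, plus strand) shows 3 CCAAT boxes, at 94, 58 and 33 bases before the start, and its CHR begins at base 41 of the transcribed part, outside the letters shown.

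The authors' TPM values were scaled here by median ratios, so that the median gene is level between libraries. Gene levels below are scaled TPM. Library medians, shares and marker sums are in TPM as deposited. TPM is per length, so levels can be compared between genes. Differences are on the log2(scaled TPM + 1) scale with standard errors (SE) from limma fitted to all 13074 genes, and a gene was called at a Benjamini-Hochberg adjusted p under 0.05. The deposited columns each sum to 1000000, so read depth and counting error are unknown. L191A sgRosa replicate 1 and WT sgPOU2F3 replicate 1 stood apart: their median gene was at 7.05 and 12.7 TPM, against 18.6 to 26.4 TPM in the other 16 libraries. Ribosomal protein genes took 37.6% and 32.4% of their TPM, against 15.6% to 26.2%. In that L191A sgRosa library, 19 of the 40 genes stood above both other replicates and 18 below both. Of all 12771 genes tested with a length, 6250 stood above both and 5617 below both. Short transcripts of the 40 were high (median 0.67 log2 for the shorter 20) and the long ones low (−0.32). The slope per doubling of length was −0.693 log2 for the 40 genes and −0.635 for all genes. In that WT sgPOU2F3 library, 37 of the 40 stood above both other replicates, and the median difference of the 40 was 0.50 log2. Of all 12771 genes, 5694 stood above both there, with a median difference of 0. Counts of the 40 genes are therefore given from all 18 libraries and from the 16 without this pair, and values with no fit named are from 18. The median SD within groups was 0.23 log2 for the 40 genes and 0.24 for all genes in 18 libraries, and 0.115 and 0.137 in 16.

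Tuft markers were present (14 of 16 at a mean of 1 TPM or more) and their summed TPM, not scaled, moved with the groups. It was 1780 to 1820 in L191A sgPOU2F3 and 1060 to 3340 in L191A sgRosa cells. It was 4220 to 4830 in WT sgPOU2F3 and 6100 to 6380 in WT sgRosa cells. It was 1490 to 1810 in Empty Vector sgPOU2F3 and 4410 to 5460 in Empty Vector sgRosa cells. These sums carry the differences in scaling factor, from 0.409 in L191A sgRosa replicate 1 to 1.35 in WT sgRosa replicate 1. In scaled TPM, sgPOU2F3 called 0 of 14 tuft markers higher and 10 lower in L191A cells (median −0.74). It called 2 higher and 3 lower in WT cells (−0.12), and 0 and 11 in Empty Vector cells (−1.35). Neuroendocrine markers (3 of 8 at a mean of 1 TPM or more) summed to 28.2 to 48.2 TPM. Stromal and immune markers (6 of 10) summed to 10.1 to 11.6 TPM in L191A sgPOU2F3 and 6.6 to 12.9 in L191A sgRosa cells, to 15.2 to 20.3 in WT sgPOU2F3 and 23.5 to 30 in WT sgRosa cells, and to 19.6 to 27.3 in Empty Vector sgPOU2F3 and 14.9 to 18.4 in Empty Vector sgRosa cells. CD3E was listed at 0 in every library. The part of these shifts in the results below was not tested. The targeted gene POU2F3 read 605, 668 and 654 scaled TPM in L191A sgPOU2F3 cells, against 347, 1070 and 842 in L191A sgRosa cells. It read 1590, 1280 and 1010 in WT sgPOU2F3 cells, against 1260, 1590 and 1510 in WT sgRosa cells. It read 263, 272 and 268 in Empty Vector sgPOU2F3 cells, against 610, 615 and 663 in Empty Vector sgRosa cells, the one line in which the guides did not overlap.

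**Figure D1:**
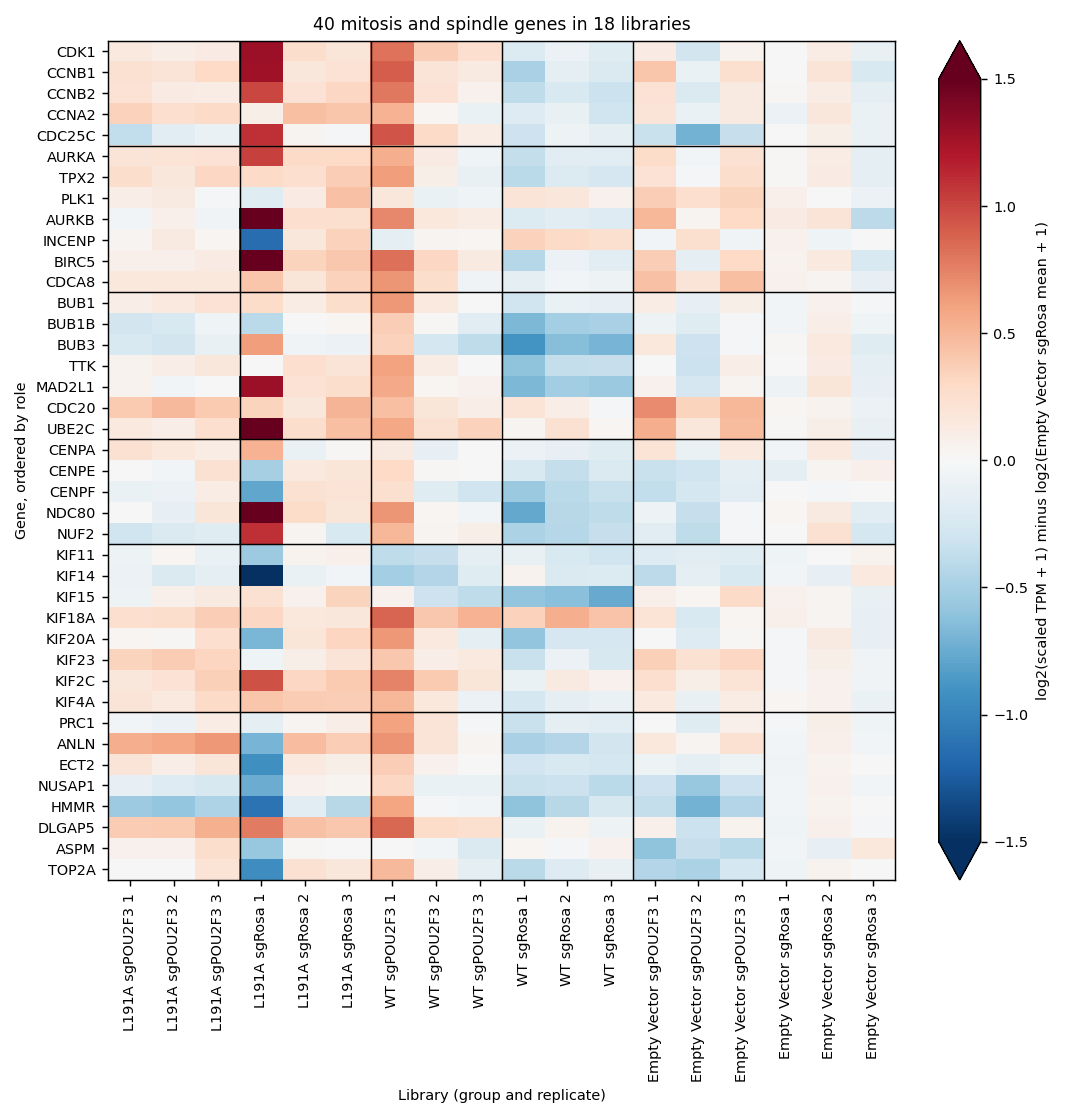
Each column is 1 library and each row 1 of the 40 genes, ordered by role (black lines part roles and groups). Colour gives log2(scaled TPM + 1) less that of the mean of the 3 Empty Vector sgRosa libraries, red above and blue below. L191A sgRosa replicate 1 holds both the deepest red and the deepest blue, WT sgPOU2F3 replicate 1 is red in most rows, and the WT sgRosa columns are blue in most rows of the checkpoint and kinetochore genes.

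The genes were abundant. In Empty Vector sgRosa cells their median level was 75.5 scaled TPM, against 19.7 for all genes tested. TOP2A, the topoisomerase that untangles sister DNA, was highest at 444 ± 19.5 (SD, n = 3), followed by UBE2C at 288 ± 20.6 and CDK1 at 230 ± 18.9. KIF15, a spindle kinesin that can stand in for KIF11, was lowest at 14 ± 1.03, below the kinetochore motor CENPE at 17.6 ± 1.43 and KIF18A at 25.6 ± 2.02. TPX2 and PRC1 (145 ± 13.6 and 145 ± 8.54) did not differ beyond their spread, nor did MAD2L1, CENPF, BIRC5 and NUSAP1, at 121 to 127. Transcripts ran from 914 bases (UBE2C) to 10887 (ASPM), with a median of 3384.5 against 3363 for all genes with a length. As a share of all TPM the 40 genes together took 0.384% to 0.454% in 17 libraries and 0.243% in L191A sgRosa replicate 1.

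Among the cyclins and CDK1, the level in WT cells was higher with sgPOU2F3 than with sgRosa for all 5 genes, and in Empty Vector cells the cyclins and CDK1 stayed within the spread. CDK1 (chromosome 10, 60778331 to 60794852, plus strand, protein-coding, GRCh38 as for every gene here) is the kinase that drives entry into mitosis. CDK1 in L191A cells read 255, 247 and 250 scaled TPM with sgPOU2F3, against 563, 277 and 262 with sgRosa. CDK1 in WT cells read 404, 298 and 274 scaled TPM with sgPOU2F3, against 199, 217 and 202 with sgRosa. CDK1 in Empty Vector cells read 250, 190 and 239 scaled TPM with sgPOU2F3, against 229, 249 and 212 with sgRosa. The groups overlapped in Empty Vector cells only. In WT cells the log2 difference was 0.64 (SE 0.23, limma adjusted p = 0.0731) in 18 libraries, and CDK1 rose by 0.47 (SE 0.11, adjusted p = 0.00948) in 16. CCNB1 (chromosome 5, 69167010 to 69178245, plus strand) encodes cyclin B1, the partner of CDK1. CCNB1 in L191A cells read 123, 120 and 130 scaled TPM with sgPOU2F3, against 256, 118 and 122 with sgRosa. CCNB1 in WT cells read 198, 120 and 116 scaled TPM with sgPOU2F3, against 75, 95.2 and 90.7 with sgRosa. CCNB1 in Empty Vector cells read 141, 98.4 and 124 scaled TPM with sgPOU2F3, against 106, 120 and 89.6 with sgRosa. The CCNB1 groups parted without overlap in WT cells alone (0.69, SE 0.26, adjusted p = 0.0821, and 0.44, SE 0.14, adjusted p = 0.0346 in 16 libraries). CDC25C, the phosphatase that activates CDK1, was lower with sgPOU2F3 in Empty Vector cells. CDC25C in Empty Vector cells read 24, 18.3 and 23.9 scaled TPM with sgPOU2F3, against 30.7, 32.5 and 28.6 with sgRosa. Its groups did not overlap there, and it fell by 0.46 log2 (SE 0.11, adjusted p = 0.00195) in 16 libraries, against −0.46 (SE 0.26, adjusted p = 0.203) in 18.

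The Aurora and Polo kinases and the chromosomal passenger complex were mixed. AURKA (chromosome 20, 56369389 to 56392337, minus strand) is the centrosome kinase that TPX2 activates on the spindle. AURKA in L191A cells read 86.2, 86.9 and 87.9 scaled TPM with sgPOU2F3, against 155, 91.9 and 92.7 with sgRosa. AURKA in WT cells read 110, 82.4 and 72.1 scaled TPM with sgPOU2F3, against 58.7, 66.9 and 67.4 with sgRosa. AURKA in Empty Vector cells read 91.2, 73.4 and 88.7 scaled TPM with sgPOU2F3, against 76, 81.2 and 68.8 with sgRosa. In WT cells all 3 sgPOU2F3 libraries were above sgRosa, in L191A cells all 3 were below, and in Empty Vector cells they overlapped, with none of the 3 differences called in either fit. PLK1 (chromosome 16, 23677656 to 23690367, plus strand) is the Polo kinase of spindle poles and kinetochores. PLK1 in L191A cells read 108, 111 and 98.3 scaled TPM with sgPOU2F3, against 88.8, 110 and 137 with sgRosa. PLK1 in WT cells read 113, 93.5 and 96 scaled TPM with sgPOU2F3, against 115, 113 and 105 with sgRosa. PLK1 in Empty Vector cells read 130, 120 and 127 scaled TPM with sgPOU2F3, against 106, 101 and 94.8 with sgRosa. PLK1 was higher without overlap in Empty Vector sgPOU2F3 cells (0.32, SE 0.14, adjusted p = 0.112) and rose by 0.32 (SE 0.09, adjusted p = 0.00585) in 16 libraries. AURKB (chromosome 17, 8204733 to 8210600, minus strand) is the kinase of the passenger complex. AURKB in L191A cells read 74.5, 81 and 74.2 scaled TPM with sgPOU2F3, against 285, 91.8 and 91.1 with sgRosa. AURKB in WT cells read 128, 85.8 and 83 scaled TPM with sgPOU2F3, against 66.9, 68.9 and 67 with sgRosa. AURKB in Empty Vector cells read 109, 79 and 94.8 scaled TPM with sgPOU2F3, against 84.2, 88.2 and 58.5 with sgRosa. The library that stands apart read 285, and the L191A difference was −0.80 (SE 0.33, adjusted p = 0.144) in 18 libraries and −0.25 (SE 0.15, adjusted p = 0.306) without the pair. BIRC5 (chromosome 17, 78214186 to 78225636, plus strand) encodes survivin, another subunit. BIRC5 in L191A cells read 128, 128 and 133 scaled TPM with sgPOU2F3, against 366, 153 and 161 with sgRosa. BIRC5 in WT cells read 217, 151 and 134 scaled TPM with sgPOU2F3, against 90.1, 114 and 109 with sgRosa. BIRC5 in Empty Vector cells read 157, 110 and 150 scaled TPM with sgPOU2F3, against 126, 135 and 104 with sgRosa. BIRC5 was higher in WT sgPOU2F3 cells without overlap and rose by 0.45 (SE 0.14, adjusted p = 0.0337) in 16 libraries, against 0.66 (SE 0.27, adjusted p = 0.0988) in 18. The scaffold subunit INCENP was lower in WT cells with sgPOU2F3. INCENP in WT cells read 44, 50.5 and 49.8 scaled TPM with sgPOU2F3, against 62.5, 59.8 and 58 with sgRosa. That difference did not pass the test in 18 libraries (−0.32, adjusted p = 0.365) or in 16 (−0.26, adjusted p = 0.0566). CDCA8, the borealin subunit, was higher with sgPOU2F3 in Empty Vector cells. CDCA8 in Empty Vector cells read 76.6, 64.7 and 77.4 scaled TPM with sgPOU2F3, against 59.1, 58.2 and 51.9 with sgRosa. It was not called in 18 libraries (0.36, SE 0.15, adjusted p = 0.0866) and rose in 16 (0.36, SE 0.09, adjusted p = 0.00379).

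Of the 6 genes called in WT cells from 18 libraries, where 12.6% of all genes were called, 3 were spindle checkpoint genes. BUB1B (chromosome 15, 40161023 to 40221136, plus strand) encodes BUBR1, a part of the inhibitor that restrains CDC20. BUB1B in L191A cells read 65.6, 67.6 and 75.7 scaled TPM with sgPOU2F3, against 59.6, 79.2 and 80.8 with sgRosa. BUB1B in WT cells read 103, 80.1 and 70.4 scaled TPM with sgPOU2F3, against 49.6, 55.4 and 56.6 with sgRosa. BUB1B in Empty Vector cells read 75.1, 69.9 and 78.1 scaled TPM with sgPOU2F3, against 77.4, 85.2 and 75.7 with sgRosa. In WT cells the guides did not overlap, and BUB1B rose by 0.62 (SE 0.15, adjusted p = 0.018), and by 0.47 (SE 0.09, adjusted p = 0.00331) in 16 libraries. TTK, the MPS1 kinase that starts checkpoint signalling, and MAD2L1, the MAD2 protein that captures CDC20, were higher with sgPOU2F3 in WT cells too. TTK in WT cells read 94, 66.8 and 61.1 scaled TPM with sgPOU2F3, against 40.1, 47.9 and 48.2 with sgRosa. MAD2L1 in WT cells read 190, 130 and 134 scaled TPM with sgPOU2F3, against 79.8, 88.4 and 86.5 with sgRosa. Both rose, TTK by 0.67 (SE 0.16, adjusted p = 0.0182) and MAD2L1 by 0.81 (SE 0.23, adjusted p = 0.0371), and in 16 libraries by 0.49 (adjusted p = 0.0113) and 0.63 (adjusted p = 0.00121). For MAD2L1 the order was the reverse in L191A cells. MAD2L1 in L191A cells read 132, 124 and 127 scaled TPM with sgPOU2F3, against 313, 149 and 153 with sgRosa. There the difference was −0.59 (SE 0.23, adjusted p = 0.124), and −0.24 (SE 0.11, adjusted p = 0.156) without the pair of libraries that stand apart. CDC20 (chromosome 1, 43358955 to 43363203, plus strand) is the coactivator of the anaphase-promoting complex that the checkpoint inhibits. CDC20 in L191A cells read 92, 98.6 and 91.9 scaled TPM with sgPOU2F3, against 88, 78.6 and 100 with sgRosa. CDC20 in WT cells read 95.8, 79.4 and 74.9 scaled TPM with sgPOU2F3, against 80.4, 75.1 and 69.1 with sgRosa. CDC20 in Empty Vector cells read 115, 88.2 and 99.2 scaled TPM with sgPOU2F3, against 71.4, 72.7 and 65.4 with sgRosa. CDC20 was higher without overlap in Empty Vector sgPOU2F3 cells, where it rose by 0.52 (SE 0.13, adjusted p = 0.00875), and by 0.52 (SE 0.10, adjusted p = 0.000593) in 16 libraries, and its groups overlapped in the other lines. UBE2C (chromosome 20, 45812576 to 45816957, plus strand) is the ubiquitin-conjugating enzyme of that complex. UBE2C in L191A cells read 318, 309 and 344 scaled TPM with sgPOU2F3, against 1200, 345 and 395 with sgRosa. UBE2C in WT cells read 432, 336 and 366 scaled TPM with sgPOU2F3, against 297, 337 and 293 with sgRosa. UBE2C in Empty Vector cells read 421, 323 and 401 scaled TPM with sgPOU2F3, against 291, 306 and 266 with sgRosa. UBE2C, the shortest transcript, read 1200 scaled TPM in the L191A sgRosa library that stands apart. In Empty Vector cells it was higher with sgPOU2F3 (0.40, SE 0.32, adjusted p = 0.392) and rose in 16 libraries (0.40, SE 0.11, adjusted p = 0.00555).

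**Figure D2:**
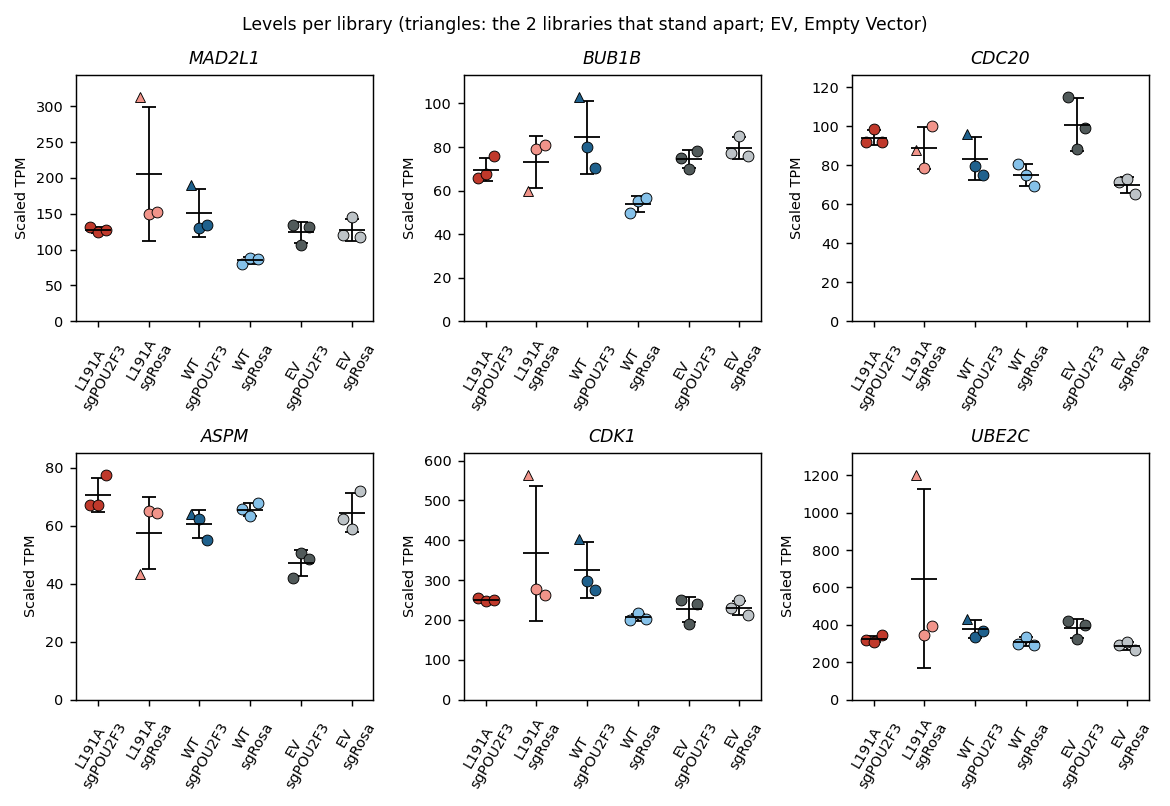
Scaled TPM of 6 genes (1 panel each) in the 6 groups. Points are libraries, triangles are the 2 that stand apart, and the bar with whiskers is the mean ± SD of 3 libraries. MAD2L1 and BUB1B are lowest in WT sgRosa cells, CDC20 is higher and ASPM lower in Empty Vector sgPOU2F3 than in Empty Vector sgRosa cells, and UBE2C reaches 1200 in L191A sgRosa replicate 1.

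All 5 kinetochore genes had a positive difference in scaled TPM with sgPOU2F3 in WT cells, as did 6320 of all 13074 genes. Of these 5 genes 0 were called there in 18 libraries, against 12.6% of all genes. In 16 libraries 2 were called, against 25.7% of all genes. In TPM as deposited the median difference of all 40 genes in WT cells was −0.01 in 18 libraries. NDC80 (chromosome 18, 2571511 to 2616635, plus strand) is the subunit that, with NUF2, binds microtubules. NDC80 in L191A cells read 65.3, 60.2 and 74.8 scaled TPM with sgPOU2F3, against 229, 79.3 and 74.7 with sgRosa. NDC80 in WT cells read 104, 66.9 and 63.6 scaled TPM with sgPOU2F3, against 38, 48.8 and 50.3 with sgRosa. NDC80 in Empty Vector cells read 62.3, 51.5 and 64.3 scaled TPM with sgPOU2F3, against 66.9, 71.9 and 58 with sgRosa. In WT cells the groups did not overlap, with a difference of 0.74 (SE 0.32, adjusted p = 0.106), and NDC80 rose by 0.52 (SE 0.13, adjusted p = 0.0142) in 16 libraries. CENPF (chromosome 1, 214603195 to 214664588, plus strand) is a large kinetochore protein. CENPF in L191A cells read 116, 117 and 134 scaled TPM with sgPOU2F3, against 71.9, 146 and 143 with sgRosa. CENPF in WT cells read 147, 109 and 101 scaled TPM with sgPOU2F3, against 84, 93.4 and 98.5 with sgRosa. CENPF in Empty Vector cells read 96, 103 and 111 scaled TPM with sgPOU2F3, against 125, 122 and 125 with sgRosa. CENPF was lower without overlap in Empty Vector sgPOU2F3 cells, by a difference of −0.26 (SE 0.21, adjusted p = 0.399), and fell by 0.26 (SE 0.08, adjusted p = 0.0134) in 16 libraries. CENPE went the same way there. CENPE in Empty Vector cells read 13.8, 14.2 and 15.9 scaled TPM with sgPOU2F3, against 16, 18.2 and 18.7 with sgRosa. It did not pass the test in 18 libraries (−0.25, adjusted p = 0.274) and fell in 16 (−0.25, SE 0.09, adjusted p = 0.0244). CENPA, the histone variant that marks the centromere, was not called for the guide in any line, with differences of 0.02 to 0.14 in 18 libraries.

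Kinesins did not share a direction. KIF11 (chromosome 10, 92593286 to 92655395, plus strand) slides antiparallel microtubules to part the spindle poles. KIF11 in L191A cells read 37, 39.8 and 36.3 scaled TPM with sgPOU2F3, against 26.5, 40.6 and 41.3 with sgRosa. KIF11 in WT cells read 29.7, 30.6 and 35.3 scaled TPM with sgPOU2F3, against 36, 33.2 and 31.4 with sgRosa. KIF11 in Empty Vector cells read 33.9, 34.6 and 34.3 scaled TPM with sgPOU2F3, against 37.4, 39.1 and 40.5 with sgRosa. In Empty Vector cells, the one line whose guides did not overlap, KIF11 fell by 0.18 (SE 0.07, adjusted p = 0.0475) in 16 libraries, against −0.18 (SE 0.14, adjusted p = 0.379) in 18. KIF20A (chromosome 5, 138178719 to 138187715, plus strand) carries the passenger complex to the midzone. KIF20A in L191A cells read 78.8, 78 and 92.2 scaled TPM with sgPOU2F3, against 47.6, 87.9 and 96.5 with sgRosa. KIF20A in WT cells read 122, 85.5 and 70.2 scaled TPM with sgPOU2F3, against 50.8, 64.8 and 64.4 with sgRosa. KIF20A in Empty Vector cells read 77.4, 67.2 and 78 scaled TPM with sgPOU2F3, against 76, 84.7 and 70.5 with sgRosa. It was higher in WT sgPOU2F3 cells without overlap and rose by 0.37 (SE 0.13, adjusted p = 0.0423) in 16 libraries (0.59, SE 0.23, adjusted p = 0.0877 in 18). KIF23, the centralspindlin motor, had sgPOU2F3 libraries above the sgRosa libraries in all 3 lines, with no overlap in any. KIF23 in L191A cells read 50.5, 52 and 49.9 scaled TPM with sgPOU2F3, against 38, 42.3 and 45.7 with sgRosa. KIF23 in WT cells read 53, 42.6 and 44 scaled TPM with sgPOU2F3, against 31.3, 37.3 and 33.6 with sgRosa. KIF23 in Empty Vector cells read 51.3, 46.7 and 49.4 scaled TPM with sgPOU2F3, against 38.9, 42.2 and 38.2 with sgRosa. KIF23 rose in WT cells by 0.44 (SE 0.11, adjusted p = 0.0271) and was not called in 18 libraries in Empty Vector (0.30, adjusted p = 0.063) or L191A cells (0.27, adjusted p = 0.15). In 16 libraries it rose in WT cells (0.34, adjusted p = 0.0114) and Empty Vector cells (0.30, adjusted p = 0.00324). In TPM as deposited, with no scaling, its difference in WT cells was −0.005 (adjusted p = 0.991). KIF15 was lowest in WT sgRosa cells. KIF15 in WT cells read 14.6, 11.1 and 10.5 scaled TPM with sgPOU2F3, against 8.93, 8.68 and 7.87 with sgRosa. It rose there by 0.45 (SE 0.13, adjusted p = 0.0379), and by 0.32 (SE 0.11, adjusted p = 0.0428) in 16 libraries. KIF14, a kinesin of cytokinesis, was measured in both lines that carry a POU2F3 cDNA as follows. KIF14 in WT cells read 23.2, 24.4 and 29.4 scaled TPM with sgPOU2F3, against 34.6, 28.7 and 28.8 with sgRosa. KIF14 in L191A cells read 31.3, 28.7 and 30 scaled TPM with sgPOU2F3, against 11.1, 31.2 and 32.5 with sgRosa. Its groups overlapped in both lines and neither difference was called, and its 11.1 in the L191A sgRosa library that stands apart was its lowest value.

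Of the 8 spindle, midzone and chromosome factors, 4 were called lower with sgPOU2F3 in Empty Vector cells in 16 libraries and none higher, against 55.2% of all genes called (27.4% lower). In 18 libraries 1 of the 8, ASPM, was called, against 26.4% of all genes. PRC1 (chromosome 15, 90966038 to 90995629, minus strand) crosslinks the microtubules of the midzone. PRC1 in L191A cells read 141, 137 and 157 scaled TPM with sgPOU2F3, against 132, 150 and 156 with sgRosa. PRC1 in WT cells read 222, 167 and 142 scaled TPM with sgPOU2F3, against 115, 132 and 130 with sgRosa. PRC1 in Empty Vector cells read 146, 128 and 153 scaled TPM with sgPOU2F3, against 142, 155 and 139 with sgRosa. Its groups overlapped except in WT cells (0.47, SE 0.15, adjusted p = 0.0522, and 0.29, SE 0.10, adjusted p = 0.0509 in 16 libraries). TOP2A (chromosome 17, 40388516 to 40417950, minus strand) was lower in every Empty Vector sgPOU2F3 library than in any sgRosa one. TOP2A in L191A cells read 441, 446 and 512 scaled TPM with sgPOU2F3, against 232, 521 and 501 with sgRosa. TOP2A in WT cells read 623, 475 and 404 scaled TPM with sgPOU2F3, against 336, 389 and 412 with sgRosa. TOP2A in Empty Vector cells read 328, 319 and 370 scaled TPM with sgPOU2F3, against 423, 462 and 446 with sgRosa. TOP2A fell there by 0.39 (SE 0.10, adjusted p = 0.00534) in 16 libraries, against −0.39 (SE 0.25, adjusted p = 0.276) in 18. ASPM, which focuses spindle poles, passed the test in Empty Vector cells from 18 libraries. ASPM in L191A cells read 67.2, 67.3 and 77.4 scaled TPM with sgPOU2F3, against 43.2, 65.1 and 64.3 with sgRosa. ASPM in WT cells read 64.2, 62.4 and 55.2 scaled TPM with sgPOU2F3, against 65.8, 63.2 and 67.7 with sgRosa. ASPM in Empty Vector cells read 42, 50.7 and 48.5 scaled TPM with sgPOU2F3, against 62.4, 59 and 71.9 with sgRosa. ASPM fell in Empty Vector cells by 0.45 (SE 0.15, adjusted p = 0.0365, and 0.000779 in 16 libraries) without overlap, and its L191A sgPOU2F3 libraries were above all L191A sgRosa libraries. HMMR, a microtubule-binding spindle protein, and NUSAP1, which bundles spindle microtubules, were also lower there. HMMR in Empty Vector cells read 28.3, 21.8 and 26.5 scaled TPM with sgPOU2F3, against 35.3, 37.7 and 36.2 with sgRosa. NUSAP1 in Empty Vector cells read 97.2, 81.4 and 97.6 scaled TPM with sgPOU2F3, against 118, 127 and 118 with sgRosa. Neither was called in 18 libraries (HMMR −0.50, adjusted p = 0.0907, and NUSAP1 −0.39, adjusted p = 0.13), and both fell in 16 (HMMR −0.50, adjusted p = 0.000768, and NUSAP1 −0.39, adjusted p = 0.000522). ANLN, a scaffold of the contractile ring, and ECT2, the exchange factor that activates RhoA at the cell equator, were among the genes with the smallest p of those higher in L191A cells. ANLN in L191A cells read 157, 160 and 169 scaled TPM with sgPOU2F3, against 65.8, 148 and 138 with sgRosa. ECT2 in L191A cells read 134, 125 and 133 scaled TPM with sgPOU2F3, against 61.6, 130 and 124 with sgRosa. ANLN was higher without overlap (0.55, SE 0.23, adjusted p = 0.158, and 0.18 in 16 libraries, adjusted p = 0.232), and the ECT2 groups overlapped (0.39, SE 0.20, adjusted p = 0.235, and 0.05 in 16 libraries, adjusted p = 0.755).

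Counted over the list, sgPOU2F3 against sgRosa in Empty Vector cells called 2 of 40 genes, CDC20 higher and ASPM lower, against 26.4% of all genes (12.6% higher and 13.8% lower). The median difference of the 40 was −0.01, and of all genes 0.00. In 16 libraries 14 of 40 were called, against 55.2% of all genes (27.8% higher and 27.4% lower), so the list's share was below the background in both fits. Higher were PLK1, CDCA8, CDC20, UBE2C and KIF23, and lower were CDC25C, CENPE, CENPF, KIF11, KIF14, NUSAP1, HMMR, ASPM and TOP2A. By role this was 2 of 7 kinase and passenger genes and 2 of 7 checkpoint and anaphase genes higher with none lower, and 4 of 8 spindle, midzone and chromosome factors and 2 of 5 kinetochore genes lower with none higher. Of the kinesins KIF23 was higher and KIF11 and KIF14 lower, and of the cyclins and CDK1 only CDC25C was called. In 18 libraries the count was 0 without Empty Vector sgPOU2F3 replicate 1 (18.3% of all genes). It was 1 without Empty Vector sgPOU2F3 replicate 3 or Empty Vector sgRosa replicate 1 or 3 (20.1%, 20.8% and 17.5%). The split moved with the scaling. In 16 libraries 3 rose and 17 fell with quantile normalization, against 24.7% and 29.7% of all genes. In TPM as deposited 3 rose and 16 fell, against 19.1% and 32.7% of all genes, whose median was −0.13.

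In WT cells sgPOU2F3 called 6 of 40 genes, all higher (CCNB2, BUB1B, TTK, MAD2L1, KIF15 and KIF23), against 12.6% of all genes (6.64% higher and 5.99% lower). The median of the 40 was 0.44, against −0.02 for all genes, and 35 of the 40 had a positive difference. In 16 libraries 18 were called, all higher, against 25.7% of all genes (15.5% higher and 10.2% lower), and they held all 6 of the genes called in 18. They were 4 of 5 cyclin and CDK1 genes, 4 of 7 checkpoint and anaphase genes (BUB1B, BUB3, TTK and MAD2L1), 2 of 5 kinetochore genes (NDC80 and NUF2), 4 of 8 spindle factors, 3 of 8 kinesins and BIRC5. The count turned on single libraries, and the share of all genes called moved with it. With single libraries left out, the median of the 40 was 0.29 to 0.56 in the 18-library fit and 0.25 to 0.34 in the 16-library fit. Without WT sgPOU2F3 replicate 1 the count was 0 (2.72% of all genes), and without WT sgRosa replicate 1 it was 0 (2.29%). Without WT sgRosa replicates 2 and 3 it was 1 (3.11%) and 2 (3.72%). Without WT sgPOU2F3 replicate 3 the count was 20 (26%). In the 16-library fit it was 2 (4.43%) without WT sgPOU2F3 replicate 2, 11 (14.4%) without replicate 3 and 6 (10.4%) without WT sgRosa replicate 1. It also turned on the scaling. In TPM as deposited the median of all genes was −0.42 in 18 libraries and −0.26 in 16, and that of the list −0.01 and 0.01. In 18 libraries 1 gene was higher there, against 1.57% of all genes higher and 5.25% lower. In 16 libraries 2 were higher and 4 lower, against 5.7% and 30.4% of all genes. Quantile normalization gave 15 higher in 18 libraries, against 13.8% of all genes higher and 11.8% lower. It gave 14 higher and 2 lower in 16, against 14.9% and 13.3%. Ribosomal protein genes took 25.1% to 32.4% of TPM in WT sgPOU2F3 and 17.4% to 22.3% in WT sgRosa libraries, and their part in the difference was not tested.

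In L191A cells sgPOU2F3 called 0 of 40 genes in limma, against 9.65% of all genes (6.41% higher and 3.24% lower), with 9 of 40 and 3321 of all 13074 genes at an unadjusted p under 0.05. In 16 libraries it also called 0 of 40, against 15.3% of all genes (9.13% higher and 6.13% lower), with 6 of 40 and 3399 of 13074 at an unadjusted p under 0.05. The medians were −0.06 and −0.12, against −0.04 and −0.02 for all genes. Without L191A sgRosa replicate 2 or 3, the count in 18 libraries was 5 and 4 (16.6% and 17.9% of all genes). In TPM as deposited it was 0 (6% of all genes), with the median of all genes at 0.33.

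**Figure D3:**
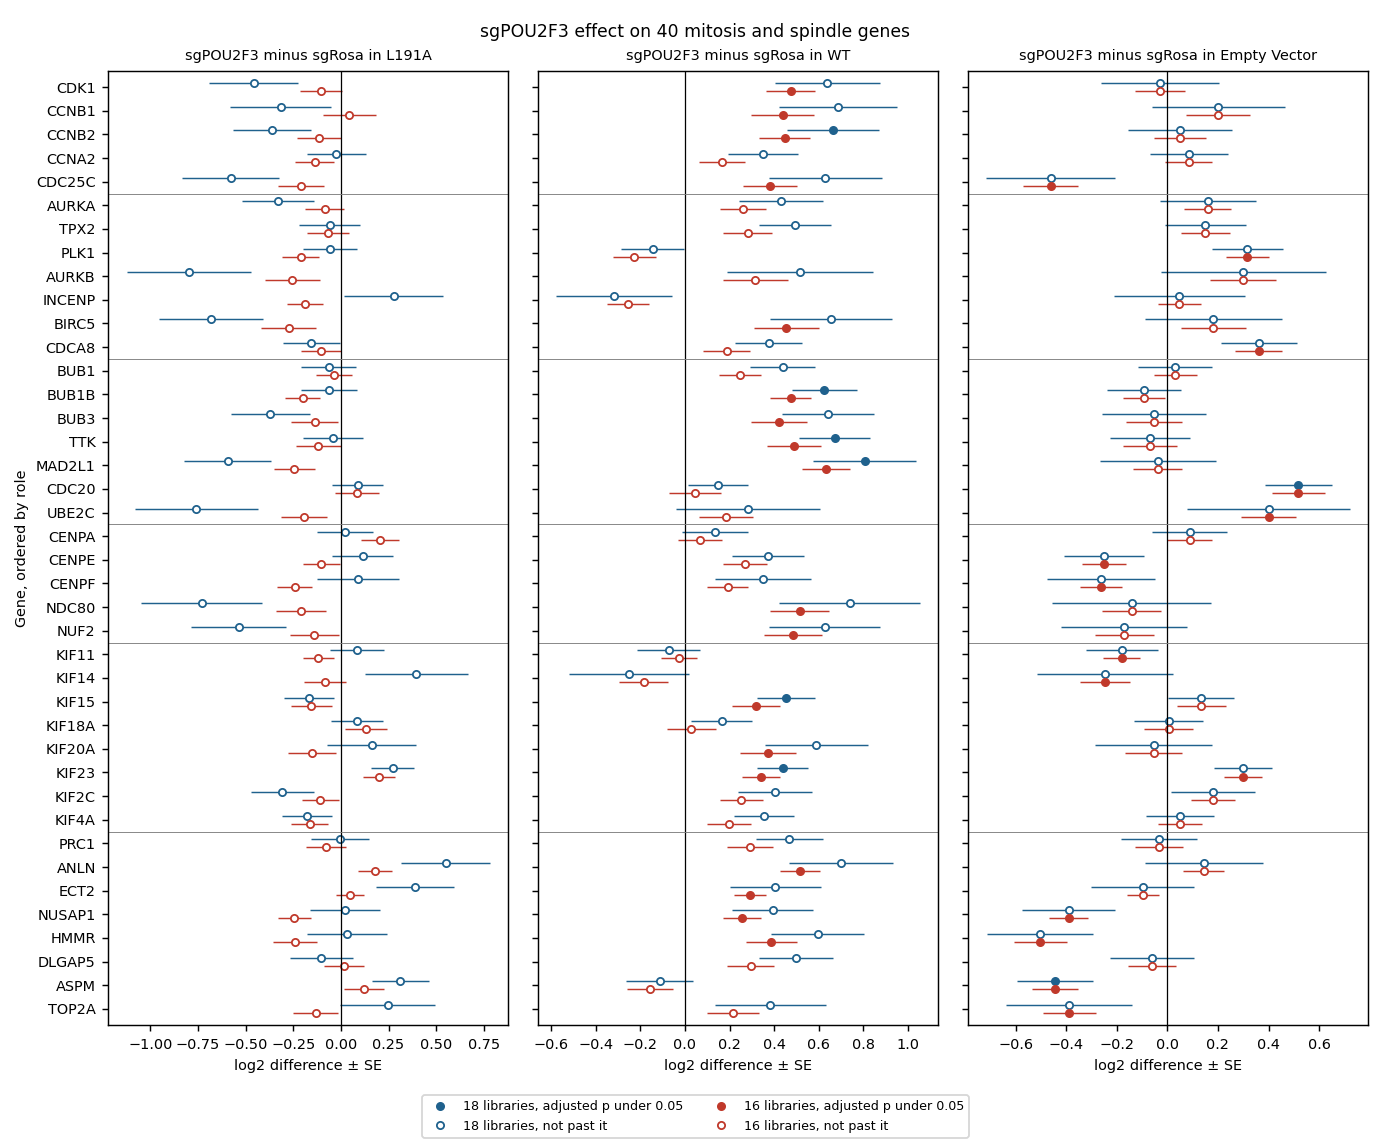
Log2 difference of sgPOU2F3 minus sgRosa (± SE, horizontal axis) for the 40 genes in L191A, WT and Empty Vector cells, from 18 libraries (blue) and 16 (red). Filled points have an adjusted p under 0.05. In WT cells most points lie right of 0 and 6 blue ones are filled, no point is filled in L191A cells, and filled red points lie on both sides in Empty Vector cells.

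The comparison with the most calls was between the cDNA lines under the control guide. Under sgRosa, 22 of 40 genes were higher in L191A than in WT cells and none was lower, against 50% of all genes (25.8% higher and 24.3% lower). The median of the 40 was 0.43, against −0.03 for all genes. In 16 libraries 30 were higher and 1, KIF18A, lower, against 57.2% of all genes (29% higher and 28.2% lower), with a median of 0.42, and 21 of the 22 genes were higher in both fits. MAD2L1 read 313, 149 and 153 scaled TPM in L191A sgRosa cells, against 79.8, 88.4 and 86.5 in WT sgRosa cells. It rose by 1.17 (SE 0.23, adjusted p = 0.000937) and by 0.82 (SE 0.11, adjusted p = 1.33e-05) in 16 libraries. KIF15 read 16.6, 14.7 and 17.8 in L191A sgRosa cells, against 8.93, 8.68 and 7.87 in WT sgRosa cells. It rose by 0.87 (SE 0.13, adjusted p = 0.000115), and by 0.86 (SE 0.11, adjusted p = 9.89e-06) without the pair. Neither gene's groups overlapped. By role, 4 of 5 cyclin and CDK1 genes, 5 of 7 kinase and passenger genes, 6 of 7 checkpoint and anaphase genes, 2 of 5 kinetochore genes, 4 of 8 kinesins and 1 of 8 spindle factors (DLGAP5) were higher in 18 libraries. The spindle factors came to 6 of 8 in 16 libraries, among them ANLN (0.81, SE 0.09, adjusted p = 3.02e-06). ANLN read 65.8, 148 and 138 in L191A sgRosa cells, against 76.0, 78.9 and 88.3 in WT sgRosa cells, so that the library that stands apart was below all of WT.

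This excess was relative to the median gene. In TPM as deposited the median of all genes was −0.67 in 18 libraries. There 3 of the 40 were higher and 4 lower, against 7.75% and 48% of all genes. In 16 libraries that median was −0.31, with 15 higher and 3 lower, against 13.9% and 44.3% of all genes. With quantile normalization 9 were higher and 3 lower in 18 libraries (24.9% and 22.3% of all genes). In 16 libraries 18 were higher and 2 lower (28.6% and 25.5%). Fitted on these groups alone, 6 were higher, against 7.61% of all genes higher and 11.7% lower. Leaving out single libraries gave 12 to 23 (37% to 56.4% of all genes), with 12 without WT sgRosa replicate 1 (37%). In the 16-library fit it gave 23 to 30 (41.5% to 53.2%). The summed share of TPM of the 40 genes was 0.243%, 0.424% and 0.435% in L191A sgRosa libraries, against 0.414%, 0.399% and 0.390% in WT sgRosa libraries.

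Against Empty Vector under sgRosa, 4 of 40 genes were called in WT and 6 of 40 in L191A cells, against 13.1% and 31.4% of all genes. In WT sgRosa cells 1 gene was higher (KIF18A, which dampens chromosome oscillations, 0.44, SE 0.14, adjusted p = 0.0428) and 3 were lower than in Empty Vector sgRosa cells: KIF15 (−0.66, adjusted p = 0.00297), BUB1B (−0.55, adjusted p = 0.0201) and BUB3 (−0.74, adjusted p = 0.0267). The background was 13.1% of all genes (7.61% higher and 5.51% lower). In 16 libraries 2 were higher and 18 lower, against 42.5% of all genes (20.2% higher and 22.2% lower). With quantile normalization 5 were higher and 13 lower there, against 20.4% and 23.9% of all genes. In TPM as deposited 2 were higher and 13 lower in 16 libraries, against 20.9% and 13.5%. The 18-library count was 1 without Empty Vector sgRosa replicate 1 or 2 or WT sgRosa replicate 1 or 2 (7.38% to 8.58% of all genes). It was 2 without WT sgRosa replicate 3 (8.57%). The 16-library count was 12 without Empty Vector sgRosa replicate 2 (31.4%). In L191A sgRosa cells 6 genes were higher than in Empty Vector sgRosa cells (AURKA, BIRC5, UBE2C, KIF2C, KIF4A and DLGAP5), against 31.4% of all genes (16% higher and 15.4% lower). In 16 libraries 11 were higher, against 39.9% of all genes (20% higher and 19.9% lower), and 5 of the 6 were among them. In 18 libraries as deposited, with the median of all genes at −0.56, none was higher and 3 were lower, against 4.95% and 31% of all genes. With quantile normalization 1 was lower, against 15.6% of all genes higher and 14.8% lower. Without L191A sgRosa replicate 1 or Empty Vector sgRosa replicate 2 the count was 2 (28.3% and 23.7% of all genes). Without Empty Vector sgRosa replicate 1 or 3 it was 0 (20.8% and 13.4%), and without L191A sgRosa replicates 2 and 3 it was 15 and 13 (44.1% and 40.1%).

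**Figure D4:**
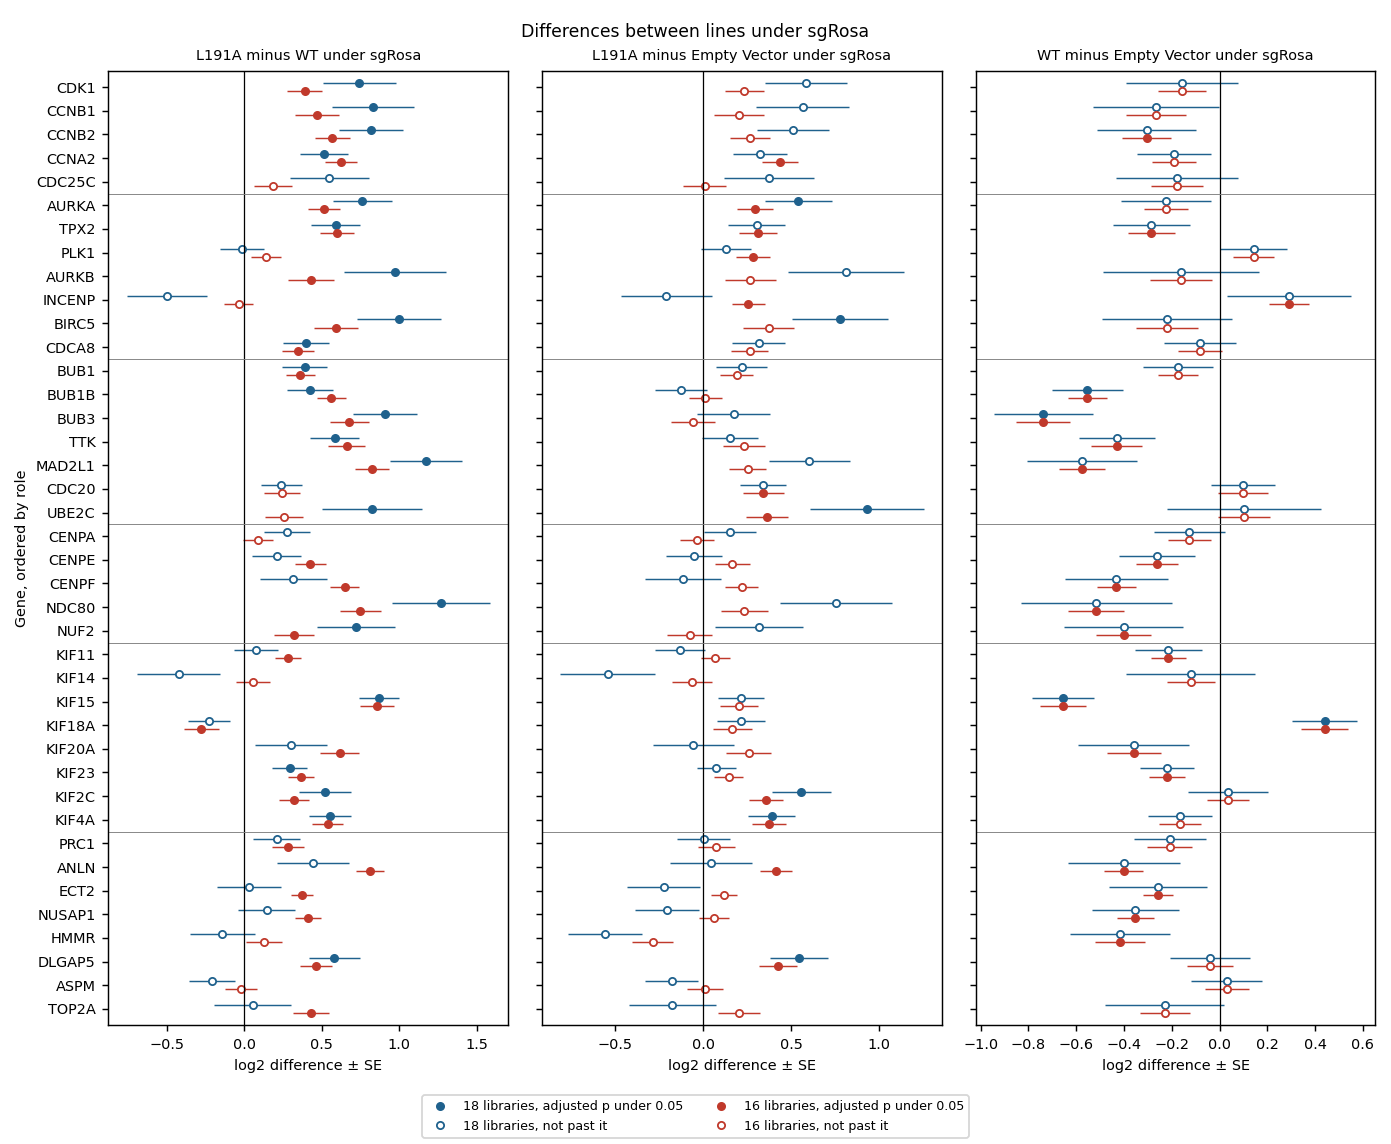
Log2 differences between lines under sgRosa (± SE, horizontal axis) for the 40 genes, from 18 libraries (blue) and 16 (red), with filled points at an adjusted p under 0.05. In L191A minus WT nearly all filled points lie right of 0, with MAD2L1 and KIF15 far to the right, and in WT minus Empty Vector most lie left of 0.

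Under sgPOU2F3 the lines were compared in the same way. WT sgPOU2F3 cells were above Empty Vector sgPOU2F3 cells in 4 genes (CDC25C 0.91, KIF18A 0.60, HMMR 0.68 and DLGAP5 0.52), with adjusted p-values of 0.013, 0.00346, 0.0222 and 0.0262. The background was 30.5% of all genes (14.6% higher and 15.9% lower). In 16 libraries 9 were higher and 4 lower, against 50.4% of all genes (24.9% higher and 25.6% lower). The count of 4 was 1 without Empty Vector sgPOU2F3 replicate 2 (22.2% of all genes). Without WT sgPOU2F3 replicate 1, 1 gene was higher and 2 were lower (13.1% and 12.9% of all genes). The median of the 40 was then 0.03, against 0.23 in 18 libraries. L191A sgPOU2F3 cells were above Empty Vector sgPOU2F3 cells in ASPM alone (0.58, SE 0.15, adjusted p = 0.0226), against 8.15% of all genes (3.92% higher and 4.24% lower), and in 16 libraries in 8 genes, with PLK1 lower, against 30.6% of all genes (14.4% higher and 16.3% lower). The ASPM call held only without Empty Vector sgPOU2F3 replicate 2, of the 6 libraries left out in turn. L191A sgPOU2F3 cells were below WT sgPOU2F3 cells in HMMR alone (−0.70, SE 0.21, adjusted p = 0.0237), against 22.2% of all genes (10.5% higher and 11.6% lower). In 16 libraries 4 (CCNA2, KIF15, KIF23 and ANLN) were higher and 2 (CDC25C and HMMR) lower, against 44.4% of all genes (22.1% higher and 22.3% lower). The count of 1 was 0 without any single L191A sgPOU2F3 replicate (15.4% to 15.9% of all genes), and 2 without WT sgPOU2F3 replicate 3 (20.4%). Without WT sgPOU2F3 replicate 1, 1 gene was higher and none lower, against 9.49% and 12.6% of all genes. The median of the 40 was then 0.08, against −0.11 in 18 libraries.

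**Figure D5:**
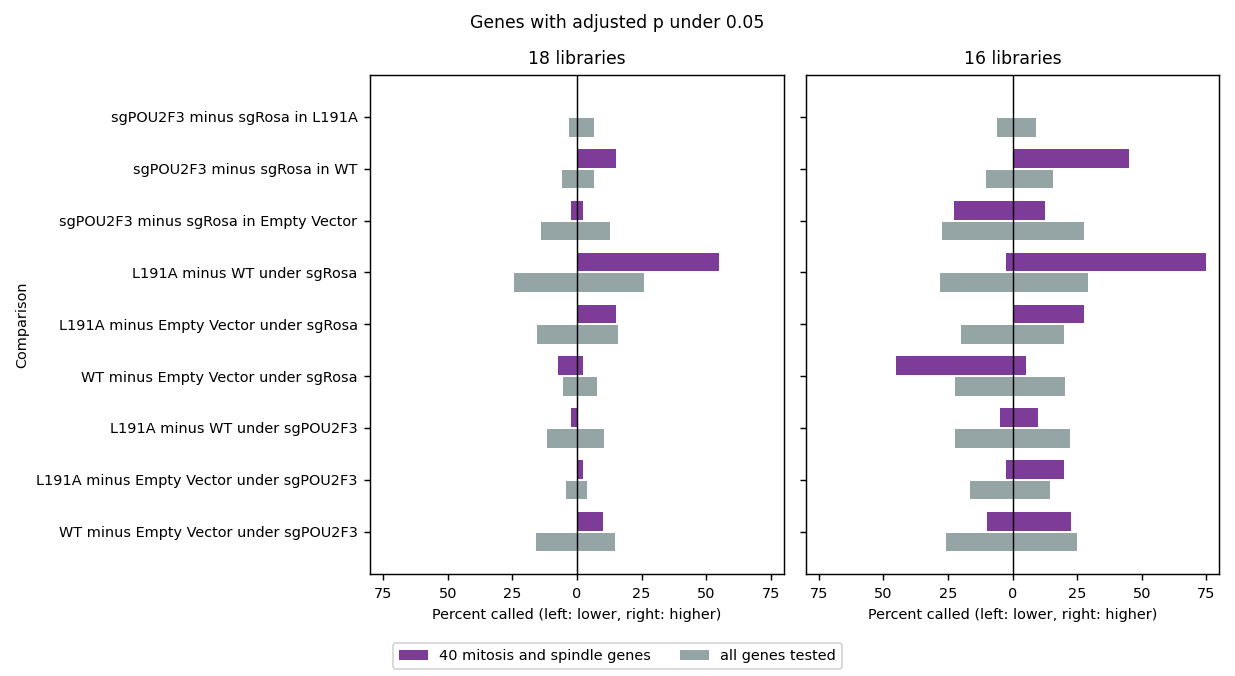
Share of genes with an adjusted p under 0.05 (horizontal axis, higher to the right and lower to the left) among the 40 mitosis and spindle genes (purple) and all 13074 genes tested (grey), for 9 comparisons in 18 and in 16 libraries. L191A minus WT under sgRosa has the longest purple bar, and sgPOU2F3 minus sgRosa in L191A has none.

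The difference of the guide effect between lines was tested directly. The effect was higher in WT than in Empty Vector cells for HMMR (1.1, SE 0.30, adjusted p = 0.0211), TTK (0.74, adjusted p = 0.0364) and BUB1B (0.72, adjusted p = 0.0297), 3 of 40 genes against 15.2% of all genes (6.91% higher and 8.33% lower). In 16 libraries 15 were higher and 2, PLK1 and CDC20, lower, against 34.2% of all genes (17.1% higher and 17.1% lower). The count of 3 was 0 without WT sgPOU2F3 replicate 1, WT sgRosa replicate 1, Empty Vector sgPOU2F3 replicate 2 or Empty Vector sgRosa replicate 2 (9.38% to 11.8% of all genes). It was 1 without WT sgRosa replicate 2, Empty Vector sgPOU2F3 replicate 1 or Empty Vector sgRosa replicate 1 (10.8% to 11.8%), and 6 without WT sgPOU2F3 replicate 3 (19.6%). The effect in L191A cells was higher than in Empty Vector cells for ASPM (0.76, SE 0.21, adjusted p = 0.0294), against 12.2% of all genes (6.41% higher and 5.75% lower), and in 16 libraries ASPM was higher and PLK1, AURKB, CDCA8, CDC20 and UBE2C were lower, against 29% of all genes (14.5% higher and 14.5% lower). The count of 1 was 0 without any single L191A sgPOU2F3 replicate or replicate 1 or 3 of either Empty Vector group (5.83% to 8.72% of all genes). It was 3 and 4 without L191A sgRosa replicates 1 and 2 (18.3% and 25.7%). The effect was lower in L191A than in WT cells for 11 of 40 genes, against 13% of all genes (7.07% higher and 5.98% lower), and the median was −0.53, against 0.03. MAD2L1 had the smallest p (−1.40, SE 0.33, adjusted p = 0.0147) and NDC80 the largest difference of the 11 (−1.47, SE 0.45, adjusted p = 0.0448), and the other 9 were CDK1, CCNB2, CDC25C, BIRC5, BUB1B, BUB3, TTK, NUF2 and KIF15. All 11 were among the 14 called lower in 16 libraries, against 14.6% of all genes (7.80% higher and 6.79% lower). This difference uses the same libraries as the guide effects of WT and L191A cells. As deposited, 1 was higher and 2 lower (10.7% and 0.971% of all genes, whose median was 0.79). In 16 libraries as deposited 2 were higher and 3 lower (11.4% and 1.74%), and fitted on these groups alone none was called (3.32%). Without WT sgPOU2F3 replicate 1, any WT sgRosa replicate or any L191A sgPOU2F3 replicate the count was 1 (4.5% to 6.26%). It was 6 without WT sgPOU2F3 replicate 2 (10.7%) and 20 without WT sgPOU2F3 replicate 3 (24.9%). It was 17 without any L191A sgRosa replicate (17.9%, 37.1% and 36.4% of all genes without replicates 1, 2 and 3). In 16 libraries it was lowest, at 3, without WT sgPOU2F3 replicate 2 (7.48%), and 4 without L191A sgRosa replicate 2 (9.37%). It was 6 without L191A sgRosa replicate 3, L191A sgPOU2F3 replicate 2 or WT sgRosa replicate 1 (8.83%, 10.4% and 9.85%), and 7 without L191A sgPOU2F3 replicate 1 (10.2%).

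Other genes of the cell cycle were read from lists chosen by function. Replication genes act in S phase, before mitosis. In Empty Vector cells 11 of 41 replication genes rose with sgPOU2F3 and none fell, 26.8% of the list against 26.4% of all genes (12.6% higher). In 16 libraries 27 rose and none fell, 65.9% against 55.2% of all genes (27.8% higher). The smallest p-values in 18 libraries were those of MCM5 (0.83, SE 0.13, adjusted p = 0.000137), a subunit of the replicative helicase, and TK1 (1.38, SE 0.25, adjusted p = 0.000726), which salvages thymidine. In L191A against WT cells under sgRosa 37 of 41 were higher and none lower, 90.2% against 50% of all genes (25.8% higher and 24.3% lower), with the smallest p for MCM4 (1.18, SE 0.11, adjusted p = 1.46e-06). Of 33 other centromere and kinetochore genes 25 (75.8%) were higher there and none lower, with the smallest p for SKA3 (1.27, SE 0.14, adjusted p = 1.02e-05), which helps hold microtubules at kinetochores. Of 21 condensin and cohesin genes 10 (47.6%) were higher and none lower, with the smallest p for CDCA5 (1.34, SE 0.18, adjusted p = 5.09e-05), the sororin that protects cohesion. Of 19 genes of the anaphase-promoting complex and separase 8 were higher and 1 lower (47.4%), with the smallest p for its inhibitor FBXO5 (1.03, SE 0.14, adjusted p = 6.18e-05). Of 43 further G2 and M phase genes 19 were higher and 3 lower (51.2%). With both directions counted, the shares of the last 3 of these lists were close to the 50% of all genes. Their calls were mostly higher, while all genes were called higher in 25.8% and lower in 24.3%. In WT cells with sgPOU2F3 these lists had 6 higher and 1 lower of 41 replication genes, 7 and 0 of 33 other kinetochore genes, 2 and 0 of 21 condensin and cohesin genes, 3 and 1 of 19 anaphase genes, and 6 and 1 of 43 further G2 and M genes, against 12.6% of all genes (6.64% higher and 5.99% lower).

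Known regulators of mitotic genes, and the CDK inhibitors and cyclins of G1, were read beside them. MYBL2 (B-MYB) read 220, 246 and 217 scaled TPM in Empty Vector sgPOU2F3 cells, against 136, 117 and 102 in Empty Vector sgRosa cells. It rose by 0.94 (SE 0.14, adjusted p = 8.88e-05), without overlap. FOXM1 read 99.1, 113 and 98.7 with sgPOU2F3, against 82.5, 78.1 and 76.9 with sgRosa in the same line, a difference of 0.38 (SE 0.14, adjusted p = 0.0538), called in 16 libraries (adjusted p = 0.00123). E2F1 had a difference of 0.31 (adjusted p = 0.479, and 0.019 in 16 libraries). Of 23 regulators 3 rose and 3 fell, 26.1% against 26.4% of all genes, with E2F4 higher (0.83, adjusted p = 1.72e-05) and RBL2, the p130 partner of the repressive complex, lower (−1.27, SE 0.17, adjusted p = 3.64e-05). Of 14 G1 genes tested 6 rose and 3 fell (64.3%). The CDK inhibitor CDKN1A read 10.6, 10.9 and 11.5 with sgPOU2F3, against 3.38, 4.13 and 3.88 with sgRosa in Empty Vector cells, and rose by 1.33 (SE 0.12, adjusted p = 5.8e-07). Cyclin D1 (CCND1) read 482, 516 and 440 with sgPOU2F3, against 214, 194 and 220 with sgRosa there, and rose by 1.19 (SE 0.17, adjusted p = 6.04e-05). CDKN2B rose by 2.17 (SE 0.15, adjusted p = 1.78e-08) and CDKN1B fell by 0.72 (SE 0.10, adjusted p = 6.73e-05). MKI67, the common proliferation marker, was not called there (−0.01, SE 0.33, adjusted p = 0.991). In WT cells none of MYBL2, FOXM1, E2F1, CDKN1A, CCND1 and MKI67 was called for the guide in 18 or 16 libraries, and in L191A cells CCND1 rose (0.85, SE 0.17, adjusted p = 0.00318, and 0.67, adjusted p = 0.000528 in 16). In L191A against WT cells under sgRosa MYBL2 was higher (0.70, SE 0.14, adjusted p = 0.000985) and CDKN1A lower (−0.56, SE 0.12, adjusted p = 0.00189), and FOXM1 was called in 16 libraries only (0.46, adjusted p = 0.000732, against 0.29, adjusted p = 0.0892 in 18). E2F1 read 93.8, 40.3 and 39.4 scaled TPM in L191A sgRosa cells, against 32.5, 27.4 and 28.6 in WT sgRosa cells. It was higher by 0.83 (SE 0.30, adjusted p = 0.0318), and by 0.43 (SE 0.12, adjusted p = 0.00602) in 16 libraries, without the replicate at 93.8.

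Some members have annotated near-copies, which can share reads with them: GENCODE names processed pseudogenes of AURKA, BUB1, BUB3, CCNB2, CDC20, DLGAP5 and UBE2C, the last with 4, and KIF4B is a copy of KIF4A. KIF4B reached at most 0.0851 scaled TPM. Levels of these members are uncertain to the extent that reads were assigned between copies.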

How the data were processed

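Poly(A) RNA of 18 libraries was sequenced. Per the submitters' processing notes, kallisto and hg38 were used. Which kallisto version and transcript set were used is not given in the sources used here. The values used are the TPM per gene that the authors deposited, whose columns each sum to 1000000, so depth is unknown. Of 19875 entries, 122 were left out (27 gene names turned into dates and 95 description fragments, together 1.47% to 2.2% of TPM). TPM was divided by median-ratio factors from 12918 genes. Then log2(scaled TPM + 1) of 13074 genes with a mean of 1 TPM or more was fitted with limma 3.58.1 (R 4.3.3), with 1 coefficient per group, a mean trend in the variance and Benjamini-Hochberg adjustment within each of 12 comparisons. Each fit was repeated on 16 libraries. Figures were drawn with matplotlib 3.10.9 (Python 3.11.15). The procedure was tested on simulated data.

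The 40 genes, the other gene lists and the tests were chosen with earlier results of these data known. The genes named are 15 fixed for their roles and, for the guide in each line, the 5 with the smallest p in each direction. Others are named where they were called. Alternatives covered the scaling, the pseudocount, the filter, a replicate block, transcript length, array weights and leaving out libraries. Same-numbered replicates did not deviate together in a regular way (correlations −0.60 to 0.62). Between WT and Empty Vector under sgPOU2F3 the correlations were 0.57, 0.62 and −0.41 for replicates 1, 2 and 3.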

Additional observations from a re-analysis of the deposited data

Results flagged for a closer look

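For 15 gene and comparison pairs the effect of sgPOU2F3 against sgRosa differed between 2 lines by an interaction term in limma. Values are log2 differences between the effects from 18 libraries, each of 3 libraries a group, with adjusted p-values over all genes.

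Between WT and Empty Vector cells the effect was higher in WT for HMMR (1.1, adjusted p = 0.0211), TTK (0.74, adjusted p = 0.0364) and BUB1B (0.72, adjusted p = 0.0297). In 16 libraries these were 0.89, 0.56 and 0.57. Between L191A and Empty Vector cells it was higher in L191A for ASPM (0.76, adjusted p = 0.0294), and 0.57 in 16 libraries.

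Between L191A and WT cells the effect was lower in L191A for 11 genes. Among cell cycle kinases and cyclins these were CDK1 (−1.1, adjusted p = 0.044), CCNB2 (−1.03, adjusted p = 0.0364) and CDC25C (−1.21, adjusted p = 0.0429). Among checkpoint genes they were MAD2L1 (−1.4, adjusted p = 0.0147), BUB3 (−1.01, adjusted p = 0.0393), TTK (−0.71, adjusted p = 0.0485) and BUB1B (−0.69, adjusted p = 0.0444). The others were BIRC5 (−1.34, adjusted p = 0.0387), NDC80 (−1.47, adjusted p = 0.0448), NUF2 (−1.16, adjusted p = 0.0444) and KIF15 (−0.62, adjusted p = 0.0421). In 16 libraries the 11 differences lay between −0.88 (MAD2L1) and −0.47 (KIF15), each with an adjusted p under 0.05. Both libraries that stand apart, L191A sgRosa replicate 1 and WT sgPOU2F3 replicate 1, enter this comparison.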

How the results depend on the processing

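Counts are of the 40 genes called. For sgPOU2F3 against sgRosa in Empty Vector cells (2 in 18 libraries) the count was 1 unscaled, 5 with quantile normalization, 11 on these groups alone, 14 in 16 libraries, 10 without L191A sgRosa replicate 1, 4 without WT sgPOU2F3 replicate 1, 21 with array weights, and 0 to 2 leaving out single libraries. In WT cells (6) it was 1, 15, 4 on these groups alone, 18 in 16 libraries, 32 without the L191A library, 0 without the WT library, 20 with the length trend removed, 34 with weights, and 0 to 20. In L191A cells (0) it was 1 with the length trend removed, 2 with weights, and 0 to 5. In Empty Vector cells the share of all genes called was 26.4% in 18 libraries and 55.2% in 16. It was 17.5% unscaled, 32% with quantile normalization and 17.5% to 21.9% leaving out single libraries. It was 45.4% on these groups alone, 45.5% without the L191A library, 30.8% without the WT library and 65.5% with weights. In WT cells it was 12.6% in 18 libraries, 25.7% in 16 and 9.26% on these groups alone. There it was 6.82% unscaled, 25.6% with quantiles, 26.4% with the length trend removed and 2.29% to 26% leaving out single libraries. Without the L191A library it was 50.2%, without the WT library 2.72%, and with weights 55.2%. In L191A cells it was 9.65%, 12.5% with the length trend removed, 20.6% with weights and 5.95% to 17.9% leaving out single libraries.

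Percentages in brackets below are the share of all genes called. Under sgPOU2F3, WT against Empty Vector (4, 30.5%) gave 2 unscaled (20.6%), 9 with quantiles (36.5%) and 13 in 16 libraries (50.4%). It gave 13 without the L191A library (48.7%), 9 with the length trend removed (41.5%), 17 with weights (64.1%), and 1 to 5 leaving out single libraries (22.2% to 30%). L191A against Empty Vector (1, 8.15%) gave 0 unscaled (3.79%), 2 with quantiles (10.2%), 5 on these groups alone (24.6%) and 9 in 16 libraries (30.6%). It gave 5 and 2 without the L191A or the WT library (20% and 11.3%), 2 by length (12.5%), 12 with weights (42.1%), and 0 to 1 (5.26% to 5.72%). L191A against WT (1, 22.2%) gave 4 with quantiles (27.3%), 6 in 16 libraries (44.4%) and 5 without the L191A library (39.5%). It gave 2 by length (31.6%), 16 with weights (59.8%), and 0 to 2 (15.4% to 22.1%).

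Under sgRosa, WT against Empty Vector (4, 13.1%) gave 2 unscaled (7.21%), 18 on these groups alone (41.4%) and 20 in 16 libraries (42.5%). It gave 14 without the L191A library (29.9%), 26 with weights (60.2%), and 1 to 3 (7.38% to 10.3%). L191A against Empty Vector (6, 31.4%) gave 3 unscaled (36%), 1 with quantiles (30.4%), 3 with no filter (22.2%) and 0 on these groups alone (4.3%). It gave 11 in 16 libraries (39.9%), 2 and 13 without the L191A or the WT library (28.3% and 36.9%), 13 with weights (43.8%), and 0 to 15 (13.4% to 44.1%). L191A against WT (22, 50%) gave 7 unscaled (55.8%), 12 with quantiles (47.2%), 6 on these groups alone (19.3%), and 12 to 23 (37% to 56.4%).

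For the difference of effects, WT against Empty Vector (3, 15.2%) gave 11 with quantiles (22.5%), 14 on these groups alone (28.2%) and 17 in 16 libraries (34.2%). It gave 21 and 0 without the L191A or the WT library (36.1% and 11.8%), 9 by length (26.3%), 22 with weights (49.1%), and 0 to 6 (9.38% to 19.6%). L191A against Empty Vector (1, 12.2%) gave 0 unscaled (6.08%), 0 on these groups alone (8.06%) and 6 in 16 libraries (29%). It gave 3 and 2 without the L191A or the WT library (18.3% and 16.2%), 0 by length (15.8%), 9 with weights (38.6%), and 0 to 4 (5.83% to 25.7%). L191A against WT (11, 13%) gave 3 unscaled (11.7%), 6 with no filter (8.42%) and 0 on these groups alone (3.32%). It gave 17 and 1 without those libraries (17.9% and 5.65%), 17 by length (18.1%), 28 with weights (36.8%), and 1 to 20 (4.5% to 37.1%).

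Within the 16 libraries, leaving out single libraries gave 10 to 18 (48% to 58.9%) for the guide in Empty Vector (14, 55.2%). In WT it gave 2 to 15 (4.43% to 19.9%, main 18, 25.7%), with 6 unscaled (36.1%). In L191A it gave 0 to 1 (9.85% to 12.4%, main 0, 15.3%), with 1 with quantiles (15.7%). For WT against Empty Vector under sgRosa it gave 12 to 21 (31.4% to 45.4%, main 20, 42.5%). For L191A against WT it gave 23 to 30 (41.5% to 53.2%, main 31, 57.2%), with 18 unscaled (58.2%) and 20 with quantiles (54.1%). For the L191A against WT difference of effects it gave 3 to 13 (7.48% to 12.7%, main 14, 14.6%), with 5 unscaled (13.2%). The fits within 16 libraries were added after seeing the data.

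Replicate numbers did not pair the samples in a regular way. With the replicate block, L191A against Empty Vector under sgRosa gave 10, and the other counts were within 1.5 times. For single genes, KIF23 in WT cells turned to −0.005 (log2) unscaled, and NUSAP1 in L191A cells to −0.23 with array weights. For single genes otherwise, 1894 results kept direction and call, 175 gained a call, 47 lost one, and 162 changed direction with no call either way. For the guide in Empty Vector cells, neither library of the pair that stands apart is in the groups compared. The differences of the 40 genes there ran from −0.5 to 0.52, with a median of −0.01, in both fits. The median SD within groups was 0.23 log2 for the 40 genes in 18 libraries and 0.115 in 16. The cause of the changes between settings was not tested.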
